A study of Mus musculus with 12 samples.

Results

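The samples described here are the liver tumours of floxed control mice, which carry no Cre recombinase and so keep Miz1. They were chosen by label alone. They are the 3 Cre negative tumours of the Miz1 fl/fl line and the 3 of the Miz1(POZ) fl/fl line, 6 of the 12 samples of the series. The other 6 are tumours of the same floxed lines with AlbCre, a recombinase driven by the albumin promoter that acts in hepatocytes. All mice were C57BL/6, and all 4 groups shared the carcinogen course. Diethylnitrosamine (DEN, 25 mg/kg) was injected in week 2 after birth, carbon tetrachloride (CCl4, 0.5 ml/kg) followed every week, and tumours were collected at 5 months. The labels do not say whether the 3 samples of a line came from 3 mice, so the spread between them may in part be technical.

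DEN is activated by pericentral cytochrome P450 enzymes of hepatocytes and damages their DNA, and CCl4 causes repeated injury and regeneration, so that hepatocellular tumours form. Healthy hepatocytes differ along the lobule. Those near the central vein make glutamine and carry much P450, under Wnt signalling, whereas those near the portal vein make urea and glucose and secrete plasma proteins. Liver tumours of mice often re-express fetal genes such as Afp, H19 and Gpc3, and may keep, lose or fix parts of this zonal program.

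RNA was sequenced from each tumour, and the lines were deposited as separate tables in different units. The Miz1 table gives 20325 genes as normalised reads, meaning reads divided by a factor per library and not by gene length. The Miz1(POZ) table gives 24054 genes as FPKM, fragments per kilobase of transcript scaled to library depth. Levels are therefore set side by side only within a table. Ranks of the Miz1 table are by normalised reads, in which a long transcript counts for more, so they order the share of reads and not the level of different genes; ranks per kilobase of exon are given after them. Reads in named genes numbered 27559398 in Miz1 floxed replicate 1 and 26213743 in replicate 2. They are not claimed for replicate 3. The depth of the Miz1(POZ) libraries is unknown.

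Zbtb17, which encodes Miz1 (chromosome 4, 141444654 to 141467930, GRCm38), had 323, 306 and 302 normalised reads in the Miz1 floxed tumours (310 ± 10.9, SD, n = 3), against 261, 271 and 267 in the Miz1 knockout tumours. It had 2.03, 2.46 and 1.82 FPKM in the Miz1(POZ) floxed tumours (2.10 ± 0.33, SD, n = 3), against 2.55, 2.60 and 1.95 FPKM in the Miz1(POZ) knockout tumours. The 3 floxed tumours were above all 3 knockouts in the first table, and the groups overlapped in the second. The labels do not say which exons are deleted, so a gene total need not follow the deletion. Mtdh, which encodes metadherin, had 3118, 3166 and 2723 normalised reads in the Miz1 floxed tumours, which placed it above 92.6% of genes. Its 19.8, 23.4 and 20.1 FPKM placed it above 89.7% of genes in the Miz1(POZ) floxed tumours. Mtdh had a narrow range in both lines, 0.22 log2 units in the Miz1 and 0.23 in the Miz1(POZ) floxed tumours.

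Libraries within each line stood apart from each other. In the Miz1 line, floxed replicates 1 and 2 lay at opposite ends. The correlation of log2 values across 13404 genes was 0.841 between them, 0.939 between replicates 1 and 3, and 0.932 between replicates 2 and 3. Replicate 2 is labelled a tumour like the others but had the lowest value of all 6 libraries of its table for 28 of the 36 tumour markers that passed the minimum level. Whether this library holds tumour or surrounding liver was not tested, so every spread given for the Miz1 line is one between libraries labelled tumours. In the Miz1(POZ) line, floxed replicate 3 stood apart. Its correlations across 11188 genes were 0.941 with replicate 1 and 0.952 with replicate 2, which correlated at 0.982 with each other. These correlations are across genes, which are not independent. Hepatocyte identity genes were plentiful in every library, and all 20 on the list passed the minimum in both tables. Y-linked genes (Ddx3y, Uty, Eif2s3y and Kdm5d) were present in all 6 tumours.

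The Miz1 floxed tumours were dominated by messages for secreted plasma proteins. Of the 50 genes with the highest mean of normalised reads, 24 were on the list of 46 secreted plasma proteins. These 50 held 38.5%, 31.2% and 34.2% of the gene total in replicates 1, 2 and 3. Alb, which encodes albumin, was highest, with 4518466, 1213390 and 2369780 normalised reads (2700545 ± 1677181, SD, n = 3). Its share of the gene total was 13.7% in replicate 1, 4.28% in replicate 2 and 8.22% in replicate 3. The highest and lowest libraries thus differed 3.72-fold, and replicate 2 was the lowest.

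Next in reads came Apob, the scaffold of very low density lipoprotein, with 737814, 549457 and 653766 normalised reads. Ahsg, the plasma glycoprotein fetuin-A, had 601789, 150551 and 388738, and Apoa1, the main protein of high density lipoprotein, had 559228, 228565 and 321830. Ahsg and Apoa1 ordered the tumours as Alb did, with replicate 1 highest and replicate 2 lowest, and Apob did so over a much narrower range. Pzp, a protease inhibitor of the macroglobulin family, followed them with 537113, 120254 and 340435. Serpina3k, a serine protease inhibitor, had the opposite order at 95744, 310149 and 151150. Cps1, the entry enzyme of the urea cycle, also had replicate 2 highest, with 106515, 254039 and 176191. The levels of Apoe (400840, 328545 and 393620) and of C3, the central complement component (308200, 295422 and 280970), were close in all 3 tumours.

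Among the leading entries, 2 do not encode protein. Gm26917, annotated as a lincRNA on chromosome 17 (39843013 to 39846341, GRCm38), had 272219, 1024006 and 549856 normalised reads. Malat1, a nuclear long noncoding RNA, had 364336, 276551 and 373412. The reads that fell in no annotated feature made up 20.4%, 31.7% and 29.4% of the Miz1 columns in replicates 1, 2 and 3, so that they too were fewest in replicate 1 and most in replicate 2. Their part in the spread of other genes was not tested. Per kilobase of exon, Gm23935, Alb, Rn7sk and Apoa1 led the ranking, Apob stood at rank 27, and 40 of the 50 highest genes were kept.

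In the Miz1(POZ) floxed tumours the 50 highest genes held 44.4%, 46.0% and 49.5% of the FPKM total, and 29 of them were on the secreted plasma protein list. Alb was again highest, at 38418, 43733 and 62597 FPKM (48249 ± 12707, SD, n = 3), with replicate 3 highest. The next protein-coding gene was Trf, the iron carrier transferrin, with 8234, 12926 and 17691 FPKM. Apoe had 13183, 12025 and 11750 FPKM and Apoc1, a small apolipoprotein, had 10428, 10856 and 10766. Apoc1 had the narrowest range of the 15 leading genes in this table, and Apoe the next. Mup20, a major urinary protein made mainly by males, had 8066, 13188 and 3253 FPKM and the widest. Fabp1, the fatty acid binding protein of the liver, had 11733, 7543 and 5527 FPKM, and Apoa2 had 8177, 6560 and 4493. Both were lowest in replicate 3, where Alb, Trf and Ahsg were highest.

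Short structured RNAs also ranked high by FPKM. Rpph1, the RNA component of ribonuclease P, was second with 21508, 19015 and 16397 FPKM, and Snord22 and the ribosomal precursor Rn45s were among the 15 highest. FPKM of such short or fragmented RNAs depend strongly on the length used. Of the 50 highest genes, 32 were shared between the tables when the Miz1 table was ranked by normalised reads (64% of each list), and 37 when it was ranked per kilobase of exon (74%). No test was made of one table against the other.

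**Figure D1:**
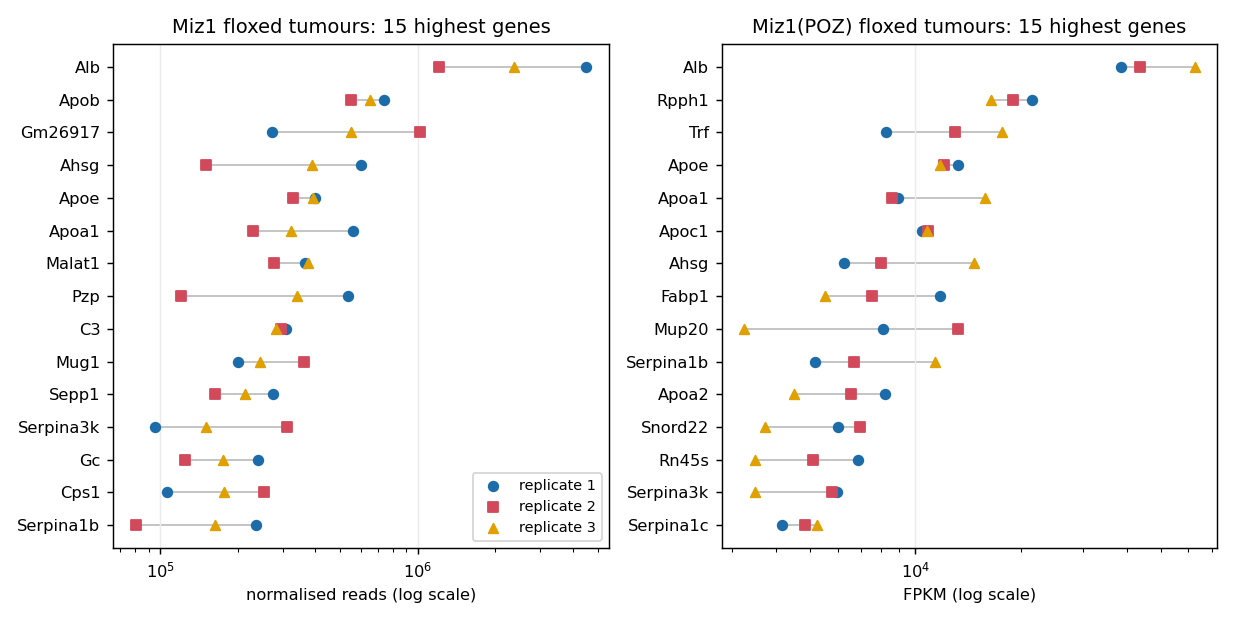
The 15 genes with the highest mean in the Miz1 floxed tumours (left, normalised reads, log axis) and in the Miz1(POZ) floxed tumours (right, FPKM, log axis). Each point is a tumour and each grey line joins the lowest and the highest; Alb spans 1213390 to 4518466 normalised reads on the left and 38418 to 62597 FPKM on the right, while Apoe and C3 on the left and Apoc1 on the right span little.

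Alb and Afp lie next to each other on chromosome 5, arose by duplication and are switched around birth, Afp being the fetal form and Alb the adult. Their promoters are shown because both genes moved between tumours, by very different factors. The 250 bases before each start site follow (RefSeq, GRCm38.p6), at chr5:90460620-90460869 for Alb and chr5:90490464-90490713 for Afp, both on the plus strand. Capitals mark matches, on either strand, to GTTAATNA for HNF1, TTGCNNAA for C/EBP and TATAAA for the TATA box.
Alb: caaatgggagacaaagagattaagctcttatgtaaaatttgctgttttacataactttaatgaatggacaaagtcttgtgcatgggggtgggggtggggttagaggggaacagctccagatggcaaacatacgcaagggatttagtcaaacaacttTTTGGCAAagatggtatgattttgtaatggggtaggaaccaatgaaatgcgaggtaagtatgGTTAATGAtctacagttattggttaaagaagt
Afp: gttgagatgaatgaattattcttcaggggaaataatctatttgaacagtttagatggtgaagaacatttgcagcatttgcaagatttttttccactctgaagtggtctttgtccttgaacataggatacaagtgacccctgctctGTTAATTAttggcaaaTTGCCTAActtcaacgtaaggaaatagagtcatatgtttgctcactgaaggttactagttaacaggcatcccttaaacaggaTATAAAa
In these letters the Alb window holds an HNF1 match that begins 32 bases before the start and a C/EBP match at 94 bases. The Afp window holds an HNF1 match at 105 bases, a C/EBP match at 89 bases and a TATA match at 7 bases. Distances are from the RefSeq start. GENCODE M21 starts the genes later, at 90460897 for Alb and 90490737 for Afp, so letters just before those starts lie outside the windows. Whether Alb has a TATA match there was not tested. Over 32851 promoters of the same length, 2.33% hold the HNF1 letters, 9.56% the C/EBP letters and 12.4% the TATA letters. The sequences are 49.5% identical over 291 aligned columns, gaps included. A match is only a description of the letters.

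Tumour markers were high in Miz1 floxed replicate 1, lower in replicate 3 and at or near their lowest in replicate 2. Afp, the fetal relative of albumin, had 21895, 250 and 5419 normalised reads in replicates 1, 2 and 3. Gpc3, a heparan sulfate proteoglycan of fetal liver and hepatocellular carcinoma, had 11663, 30.3 and 6092. Scd2, a fatty acid desaturase low in adult liver, had 11718, 209 and 5638. For each of these genes replicate 2 lay far under both other tumours. Of the 42 markers on the list, 41 were in this table and 36 passed the minimum of 50 normalised reads. Between the highest and lowest tumour 21 of the 36 (58.3%) differed more than 4-fold and 27 (75%) more than 2-fold, against 7.89% and 24.9% of all 13404 genes past the minimum. Replicate 1 was highest for 30 and replicate 2 lowest for 32. Among all 1058 genes past 4-fold, replicate 1 was highest for 52.3% and replicate 2 lowest for 56.4%. Such shares over all genes past the minimum were not computed, here or for the lists below.

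Other markers followed the same order. Akr1c18, a 20-alpha-hydroxysteroid dehydrogenase, had 7069, 16.2 and 3269 normalised reads, and Lcn2, a siderophore-binding lipocalin, had 7829, 388 and 5485. The imprinted noncoding RNA H19 had 1484, 7.57 and 444. Spink1, a trypsin inhibitor of the acinar pancreas that tumours can express, had 897, 3.25 and 179, and Tff3, a secreted trefoil peptide, had 3341, 23.8 and 1660. The 3.25 normalised reads of Spink1 in replicate 2 are 3 reads (exact 95% Poisson interval 0.619 to 8.77 reads, counting error only), so its fold is poorly set. Ly6d, a surface protein chosen for mention after its values were seen, had 4044, 79.0 and 2259. Without replicate 2, only 4 of the 36 markers differed more than 4-fold, and without replicate 1, 16 did. Of all genes 2.14% did without replicate 2 and 2.45% without replicate 1.

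The other 9 markers past the minimum stayed within 2-fold, among them Mtdh, Myc, Sox9 and Peg3. Peg3, an imprinted zinc finger gene named after its values were seen, was highest in replicate 2 at 1277, 1542 and 947 normalised reads. The stem cell and oncofetal genes Dlk1, Mdk, Vil1, Epcam and Igf2 did not pass the minimum in this table. Igf2, the growth factor gene that is imprinted with H19, had 54.0, 26.0 and 23.2 normalised reads.

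The same markers were highest in replicate 3 of the Miz1(POZ) floxed tumours. Lcn2 had 87.8, 180 and 1123 FPKM, Gpc3 had 33.1, 84.1 and 313, and Afp had 15.3, 19.9 and 125. H19 had 2.39, 6.19 and 19.9 FPKM, and Tff3 had 84.3, 305 and 466. The highest tumour exceeded the lowest 12.8-fold for Lcn2 and 9.47-fold for Gpc3. Among the 41 markers measured, 32 passed the minimum of 1 FPKM. Of these, 6 differed more than 4-fold and 19 more than 2-fold, against 1.64% and 8.82% of all 11188 genes past the minimum. Replicate 3 was highest for 27 of the 32, and for 41.0% of the 183 genes past 4-fold. Without it none of the 32 differed more than 4-fold, but only 0.30% of all genes did. On this length-corrected scale Lcn2, Tff3, Gpc3, Ly6d and Akr1c18 were the 5 highest markers. Igf2bp1, a fetal RNA-binding protein, was listed at 0 in all 3 of these tumours.

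**Figure D2:**
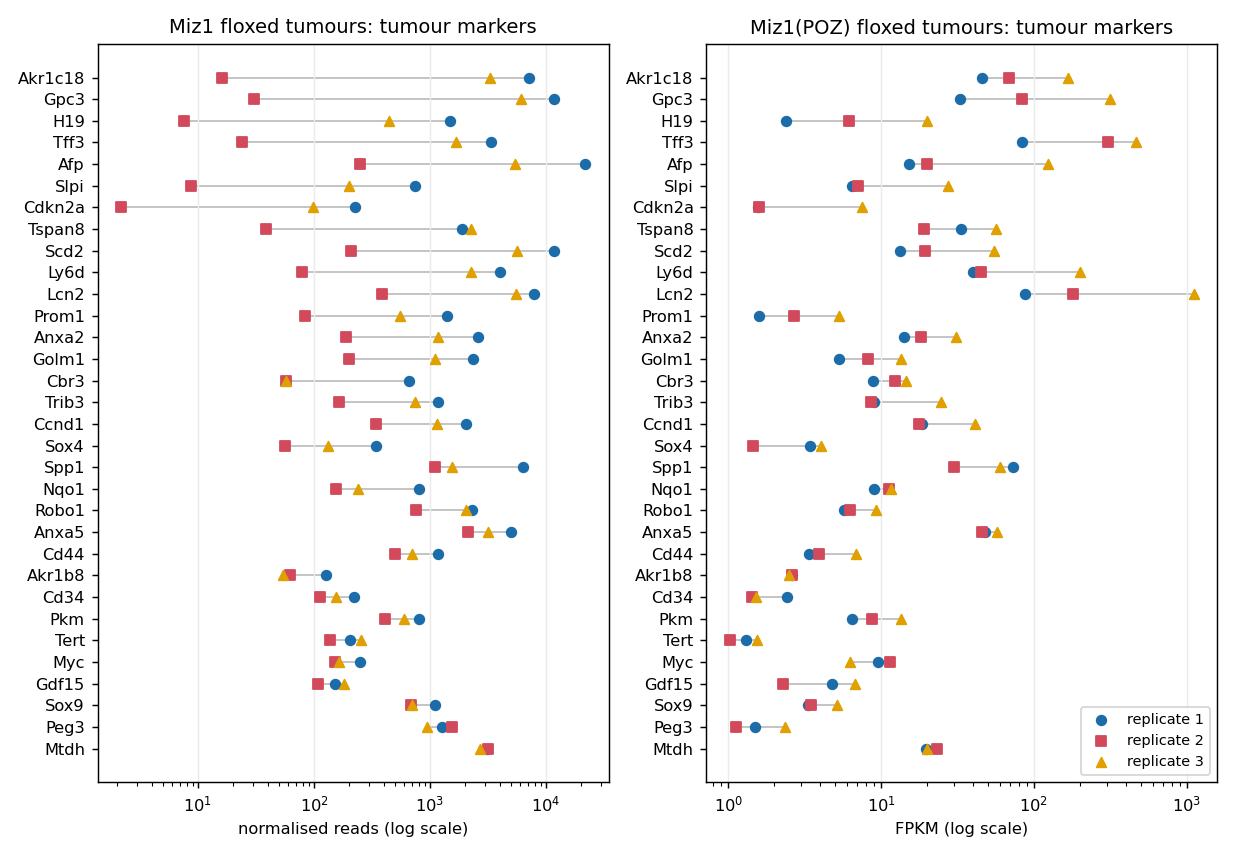
The 32 tumour markers that passed the minimum in both tables, ordered by their range in the Miz1 floxed tumours, in normalised reads (left, log axis) and FPKM (right, log axis). Each point is a tumour; Miz1 floxed replicate 2 (square) lies at the low end of most lines on the left, with Gpc3 at 30.3, and Miz1(POZ) floxed replicate 3 (triangle) lies at the high end of most lines on the right, with Gpc3 at 313.

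Genes of cell division followed the markers in the Miz1 line. All 18 proliferation genes past the minimum were highest in replicate 1, and 16 were lowest in replicate 2. Top2a, which untangles replicated DNA, had 452, 24.9 and 79.8 normalised reads in replicates 1, 2 and 3, and Tpx2, a spindle assembly factor, had 143, 4.33 and 16.2. Of the 18 genes 8 (44.4%) differed more than 4-fold, against 7.89% of all genes past the minimum. In the Miz1(POZ) line only 6 of 26 proliferation genes reached 1 FPKM. None of the 6 differed more than 2-fold on the log2(value + 1) scale, where 8.82% of all genes did, so that count does not set them apart. Mcm2, a subunit of the replicative helicase, had the widest range of the 6 at 0.71, 0.93 and 2.31 FPKM. Its plain fold was 3.25, which the added 1 brings under 2-fold. Low levels limit what can be seen there.

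Zonation genes separated the tumours as well. Pericentral genes were low in Miz1 floxed replicate 1, which was the lowest tumour for 26 of 36 past the minimum. Cyp2e1, the P450 that activates ethanol, DEN and CCl4, had 6372, 131465 and 100946 normalised reads in replicates 1, 2 and 3. Glul, glutamine synthetase of the innermost pericentral layer, had 1684, 13252 and 12858 and was chosen for mention after its values were seen. Oat, an ornithine aminotransferase of the same layer, had 285, 8804 and 7506. Replicates 2 and 3 were close to each other for these genes and replicate 1 lay far below both. Slc1a2, a glutamate transporter, had 49.2, 5759 and 6094 normalised reads, and Cyp7a1, the rate-limiting enzyme of bile acid synthesis, had 79.2, 4255 and 2274. Cyp2c54, a P450, had 50.4, 3176 and 4034 and Sult5a1, a sulfotransferase, had 2.40, 224 and 245.

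The pericentral list did not move as a whole. Cyp2a5, a coumarin hydroxylase, had the opposite order, with 18359, 3341 and 7996 normalised reads, and its reads are hard to separate from those of its near-identical neighbour Cyp2a4. Gsta3, a glutathione transferase, was close in all 3 tumours at 12520, 11579 and 13547. Of the 36 pericentral genes 21 differed more than 4-fold, 2 did without replicate 1, and 15 did without replicate 2. Of all genes past the minimum, 7.89% did with every tumour, 2.45% without replicate 1 and 2.14% without replicate 2. The Wnt target Axin2 had 43.2, 443 and 261 normalised reads and Lgr5, a Wnt co-receptor, had 82.8, 309 and 229, both named after their values were seen. These too were lowest in replicate 1.

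Periportal genes moved less. Of 30 genes past the minimum 11 differed more than 4-fold, against 7.89% of all genes. Replicate 1 was lowest for 23 and replicate 2 highest for 21. G6pc, which releases glucose in gluconeogenesis, had 1365, 25403 and 4978 normalised reads, and Pck1, the first committed gluconeogenic enzyme, had 39107, 190040 and 122082. Etnppl, a phosphoethanolamine lyase, had 261, 6676 and 4392. Asl, which splits argininosuccinate in the urea cycle, had 4413, 33580 and 18824, and Ass1, which makes it, had 21331, 76755 and 58816. Replicate 2 was the highest tumour for each of these 5. Apoa4, a lipoprotein of intestine and fatty liver, ran the other way with 85200, 17108 and 71838, as did Hsd17b6, a steroid dehydrogenase, with 5138, 830 and 1819. Cyp8b1, a mid-lobular sterol hydroxylase, had 161, 14624 and 3946 normalised reads.

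Most pericentral and most periportal genes were low in Miz1(POZ) floxed replicate 3. Replicate 3 was lowest for 28 of 35 pericentral and 23 of 30 periportal genes past the minimum. Among the 183 genes past 4-fold it was lowest for 49.2%. Of 10576 genes past the minimum in both lines, 59.0% were lower in Miz1(POZ) floxed replicate 3 than in replicate 1. Cyp3a11, a broad drug-metabolising P450, had 2336, 4407 and 585 FPKM, and Cyp2e1 had 2502, 1828 and 822. Cyp2f2, a P450 of portal hepatocytes, had 683, 580 and 130 FPKM, Pck1 had 2158, 1613 and 650, and Etnppl had 76.5, 64.3 and 12.0. Replicate 3 was highest for 3 of the 30 periportal genes. These include Apoa4, at 1783, 2197 and 2806 FPKM, and Alb, which is on that list. Arg1, the last enzyme of the urea cycle, had 872, 1091 and 966 FPKM. With Alb in it, the summed periportal level was highest in replicate 3, at 48831, 54289 and 70583 FPKM. The innermost pericentral gene Glul was nearly level, with 88.3, 81.2 and 69.5 FPKM. More than 4-fold differences were found for 3 of 35 pericentral and 3 of 30 periportal genes, against 1.64% of all genes. Without replicate 3 no gene of either list differed so far, but only 0.30% of all genes did.

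An index of zonation was taken as the mean log2(value + 1) of the 39 pericentral genes minus that of the 30 periportal genes. It was -4.04, -3.27 and -2.85 in Miz1 floxed replicates 1, 2 and 3, against -3.74, -3.16 and -3.40 in the Miz1 knockout tumours. The floxed tumours thus spanned 1.18 log2 units and enclosed the 3 knockouts. It was -2.52, -2.51 and -2.66 in the Miz1(POZ) floxed tumours, a span of 0.14, against -2.34, -1.93 and -2.74 in the Miz1(POZ) knockout tumours, which spanned more. Since most genes of both lists were low together in Miz1(POZ) floxed replicate 3, the index hardly registers it. The units differ, so the index of the lines cannot be compared. In bulk tissue, fewer cells of a type and less RNA per cell cannot be told apart.

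**Figure D3:**
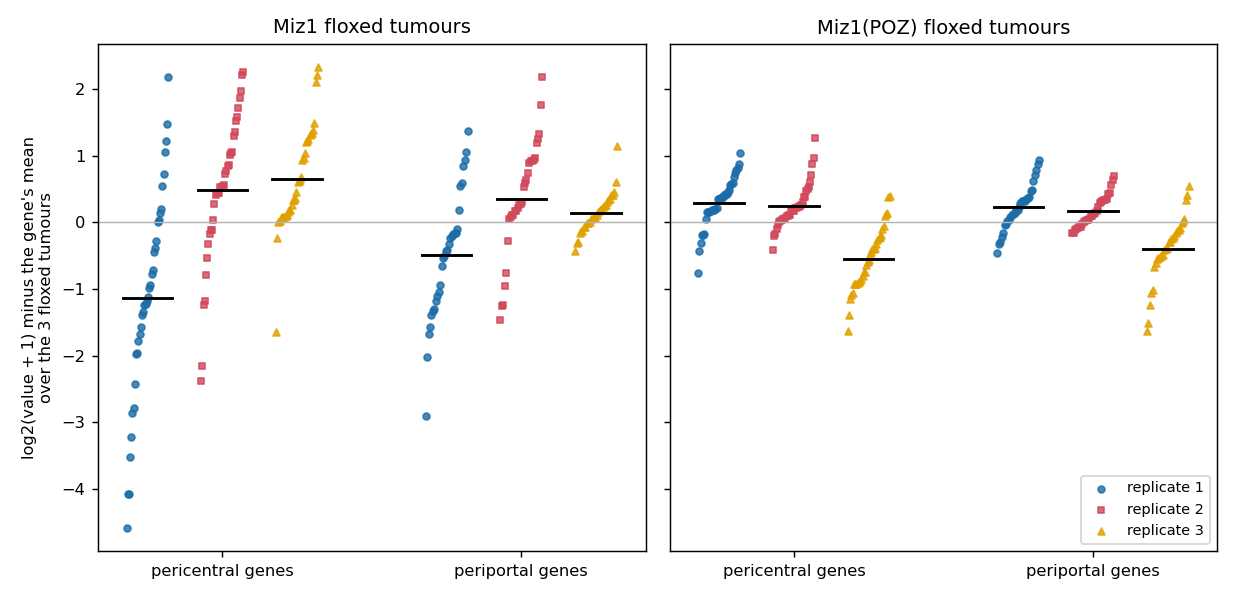
Pericentral and periportal genes past the minimum in each floxed tumour, as log2(value + 1) minus the gene's mean over the 3 floxed tumours of its table. Each point is a gene, placed in ascending order within a tumour, and bars are means; pericentral genes average -1.14 in Miz1 floxed replicate 1, against 0.48 and 0.66 in replicates 2 and 3, and -0.54 in Miz1(POZ) floxed replicate 3, against 0.30 and 0.25 in replicates 1 and 2.

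The spread is given for each line on its own, since the unit, the minimum and the weight of the pseudocount differ between the tables. In the Miz1 line the median gene differed 1.45-fold between its highest and lowest tumour, and 1058 of 13404 genes (7.89%) differed more than 4-fold. The Miz1(POZ) median was 1.28-fold and 183 of 11188 genes (1.64%) differed more than 4-fold. Replicate 3 was in the middle for 909 of the 1058 Miz1 genes (85.9%). Leaving out Miz1 floxed replicate 1 lowered the count to 328 (2.45%), leaving out replicate 2 to 285 (2.14%), and leaving out replicate 3 to 1008. For the Miz1(POZ) line the counts were 111, 143 and 33 without replicates 1, 2 and 3. Folds are on the log2(value + 1) scale, which understates those of low genes.

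The position of Miz1 floxed replicate 3 between the other tumours was similar for genes of both directions. Of 582 genes more than 4-fold higher in replicate 1 than in replicate 2, replicate 3 lay between them for 534 (91.8%), at a median of 44.6% of the way from the level in replicate 2 to that in replicate 1 (quartiles 29.1% and 61.4%). Of 410 genes more than 4-fold higher in replicate 2 it lay between for 371 (90.5%), at a median of 55.0% of that way (36.2% and 69.2%). Replicate 2 of the Miz1(POZ) line lay near replicate 1. It stood 8.50% of the way towards replicate 3 for 62 genes more than 4-fold higher in replicate 3, and 28.8% for 64 genes more than 4-fold higher in replicate 1. The pairs of tumours at the ends were chosen after their values were seen, and small RNA genes were left out.

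**Figure D4:**
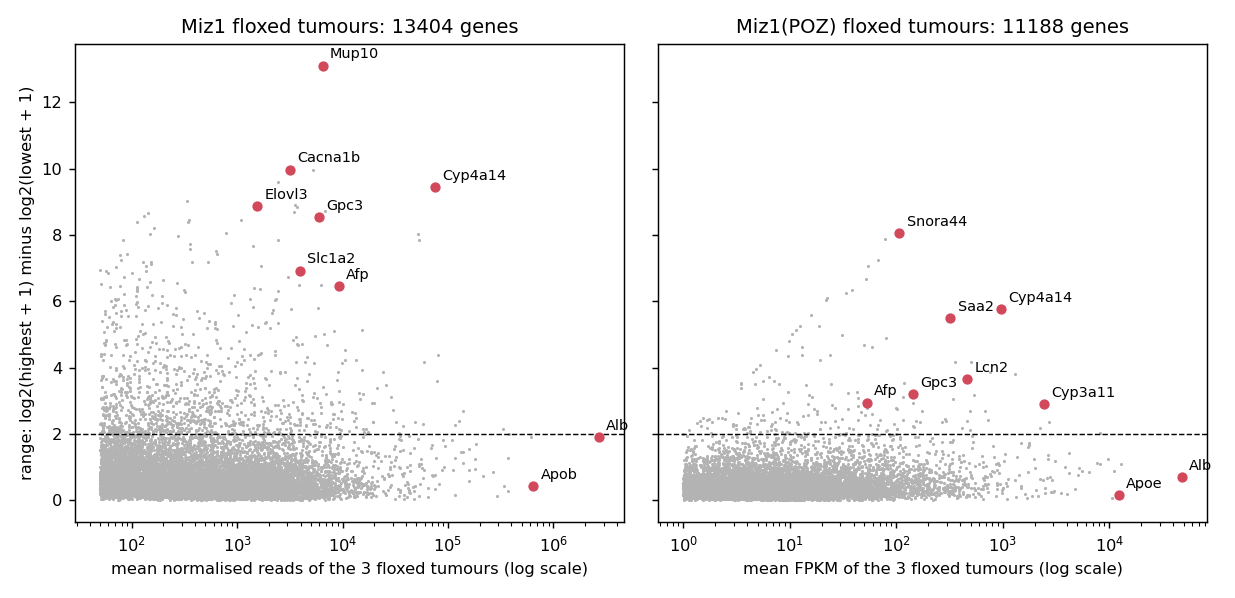
Range between the 3 floxed tumours against their mean, for the 13404 genes of the Miz1 table (left) and the 11188 of the Miz1(POZ) table (right) that passed the minimum; x axes are logarithmic and each point is a gene. The dashed line marks 4-fold; red points are named genes, among them Mup10 with a range of 13.1 log2 units and Alb with 1.90 on the left, and Cyp4a14 with 5.77 and Apoe with 0.17 on the right.

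The widest genes of the Miz1 floxed tumours split into a set that was highest in replicate 2 and lowest in replicate 1, and a set nearly missing from replicate 2. To the first belong the major urinary protein genes Mup10, with 1.20, 19303 and 209 normalised reads, and Mup7, with 9.59, 10464 and 5271. The Mup10 value in replicate 1 is 1 read (exact 95% Poisson interval 0.0253 to 5.57 reads), and reads of the Mup cluster are hard to assign to members. Cyp4a14, a fatty acid omega-hydroxylase induced through PPARalpha, had 233, 163051 and 62159, which made it also a very abundant message in 2 of the tumours. Elovl3, a male-biased fatty acid elongase, had 8.40, 4391 and 274, and Pitx3, a homeobox gene, had 0, 381 and 9.09. Pitx3 was at least 105.85-fold higher in replicate 2 than in replicate 1, against a floor of 3 reads in that library, which also serves for the bounds below.

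The second set was high in replicates 1 and 3, or in replicate 1 alone. Cacna1b, a neuronal calcium channel subunit, had 6423, 5.41 and 3016 normalised reads. Cpe, a carboxypeptidase that processes prohormones, had 6228, 11.9 and 4299, and Kif5c, a neuronal kinesin, had 6414, 13.0 and 4543. Csn3, the milk protein kappa-casein, had 515, 0 and 488, and was thus at least 158.5-fold higher in replicate 1 than in replicate 2. Slc22a27, an organic anion transporter, had 403, 0 and 27.3, at least 124-fold higher in replicate 1. Cyp2b9, a female-biased P450, had 11377, 26.0 and 9076. 2310034O05Rik had 3158, 4.33 and 4118, and Erich4 had 728, 1.08 and 318. With Akr1c18 and Gpc3, given above, these are the 15 widest.

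All 15 were in the Miz1(POZ) table, 13 passed its minimum, and 6 of those differed more than 4-fold there, against 1.64% of all genes. Csn3 had 1.43, 11.7 and 44.5 FPKM, Kif5c had 2.94, 5.01 and 20.01, and Cacna1b had 1.05, 2.26 and 9.37. All 3 were highest in replicate 3, which also had the highest Gpc3 and Afp. Mup7 had 663, 3048 and 218 FPKM and Cyp4a14 had 2092, 758 and 37.3, and both were lowest in replicate 3.

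Small RNAs made up 24 of the 100 widest genes in the Miz1(POZ) floxed tumours, and most of the first 15. Snora44, a small nucleolar RNA, had 265, 0 and 56.6 FPKM, and Snora64 had 133, 29.0 and 0. The number of fragments behind these values is unknown. With small RNAs left out, Cyp4a14 came first. Acot1, an acyl-CoA thioesterase, followed the same order at 119, 56.7 and 3.89 FPKM, as did Ehhadh, the bifunctional enzyme of peroxisomal oxidation, at 1032, 440 and 56.0 and Cyp4a10 at 1399, 791 and 95.3. These 4 are targets of PPARalpha, and all were highest in replicate 1. Sult2a2, a hydroxysteroid sulfotransferase, was high only in replicate 3 at 4.51, 4.84 and 140 FPKM. Other members of the 15, such as Rpl26, Rps27, Eif3j1, Hist1h4m and Hba-a2, have near-identical copies or were listed at 0 in some tumours, and their values are uncertain. Mup1 had 29.4, 205 and 5.99 FPKM, and Gm15441 had 30.1, 8.60 and 0.27.

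The acute phase genes Saa1 and Saa2 stood out among secreted proteins. Serum amyloid A is a small apolipoprotein that the liver releases in inflammation. Saa2 had 19.5, 24.5 and 924 FPKM and Saa1 had 63.8, 51.5 and 944 in Miz1(POZ) floxed replicates 1, 2 and 3. Both were high in replicate 3 only, with ranges of 5.50 and 4.17 log2 units. Their promoters are shown because the genes moved together and lie head to head on chromosome 7. They stand at chr7:46742981-46743230 on the minus strand for Saa1 and chr7:46751583-46751832 on the plus strand for Saa2 (250 bases before the start, RefSeq, GRCm38.p6, capitals as above).
Saa1: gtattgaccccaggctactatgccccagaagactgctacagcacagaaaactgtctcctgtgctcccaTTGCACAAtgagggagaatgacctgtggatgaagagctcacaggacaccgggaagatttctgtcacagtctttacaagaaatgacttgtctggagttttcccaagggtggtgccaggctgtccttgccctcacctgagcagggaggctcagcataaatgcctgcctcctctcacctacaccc
Saa2: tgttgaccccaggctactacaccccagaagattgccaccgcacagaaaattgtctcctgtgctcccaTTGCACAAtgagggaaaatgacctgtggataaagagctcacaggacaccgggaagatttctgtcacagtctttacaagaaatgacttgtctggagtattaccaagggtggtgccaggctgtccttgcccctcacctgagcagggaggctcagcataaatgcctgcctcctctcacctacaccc
The windows are 94.8% identical over 251 aligned columns, and each holds the C/EBP letters TTGCACAA, beginning 182 bases before the start in Saa1 and 183 in Saa2. GENCODE M21 starts Saa2 at 46751790, inside its window, so that distance holds for the RefSeq start only. The transcripts are also alike, so reads of Saa1 and Saa2 may have been shared by the counting. In the Miz1 floxed tumours, Saa2 had 28.8, 172 and 179 normalised reads and Saa1 had 92.3, 430 and 589. There they were lowest in replicate 1, the tumour with the highest Afp.

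Acute phase genes as a list were highest in Miz1(POZ) floxed replicate 3 for 24 of 28. The difference passed 4-fold for 8 of the 28, against 1.64% of all genes. In the Miz1 line 8 of 27 passed it, against 7.89% of all genes, and replicate 1 was highest for 14. Il1rn, the interleukin-1 receptor antagonist, had 2942, 141 and 1640 normalised reads there, and replicate 1 was highest. Under scaling to the gene sum the mean of this Miz1 list in replicate 1 changed sign, to -0.08, so no order of replicate 1 is read from it.

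Male-biased liver genes, which in mice are set by pulsed growth hormone, had the widest spread of the larger lists in the Miz1(POZ) line. There 13 of 21 past the minimum differed more than 4-fold, against 1.64% of all genes, and replicate 3 was lowest for 18. In the Miz1 line 12 of 19 did, against 7.89% of all genes, with replicate 1 lowest for 14 and replicate 2 highest for 16. Cyp7b1, an oxysterol hydroxylase named after its values were seen, had 67.2, 7173 and 1956 normalised reads, and 49.2, 73.2 and 9.39 FPKM in the other line. Female-biased genes did not simply run the other way. In the Miz1 line 10 of 15 differed more than 4-fold, replicate 1 being highest for 8 and lowest for 5, and the mean of the list was highest in replicate 3 (0.21, -1.24 and 1.03 log2 units in replicates 1, 2 and 3). In the Miz1(POZ) line 6 of 14 differed more than 4-fold, and replicate 3 was highest for 9. Both counts stand beside the same 7.89% and 1.64% of all genes. Within the list, Cyp2a4, a steroid 15-alpha-hydroxylase also named after its values were seen, had 104277, 400 and 51984 normalised reads and 1189, 981 and 3136 FPKM. Cyp4a14, on the same list, was lowest in the tumours where Cyp2a4 was highest, as given above.

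Genes of fatty acid and cholesterol synthesis tracked the tumour markers. In the Miz1 line 16 of 23 differed more than 4-fold, against 7.89% of all genes. Replicate 1 was highest for 21 and replicate 2 lowest for 21. Pnpla3, a lipid droplet acyltransferase, had 670, 13.0 and 101 normalised reads, and Pnpla5, its relative, had 222, 1.08 and 30.3. Of 23 in the Miz1(POZ) line 6 differed more than 4-fold, against 1.64% of all genes, and replicate 3 was highest for 20. Pnpla3 had 0.29, 0.48 and 6.20 FPKM, and Thrsp, a lipogenic nuclear protein, had 16.2, 22.6 and 91.9. Fasting and PPARalpha genes mostly ran the other way in the Miz1 line, with replicate 2 highest for 13 of 20 and replicate 1 lowest for 14. In the Miz1(POZ) line replicate 1 was highest for 15 of 20, while replicate 3 was lowest for 12 and replicate 2 for 8. More than 4-fold, 8 of 20 differed in the Miz1 line, against 7.89% of all genes. In the Miz1(POZ) line 7 of 20 did, against 1.64%.

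Drug metabolism, interferon and clock genes gave other patterns. Of 27 genes of xenobiotic metabolism past the minimum in the Miz1 line 9 differed more than 4-fold, against 7.89% of all genes. Replicate 1 was lowest for 20. Of 28 in the Miz1(POZ) line 8 differed more than 4-fold, against 1.64% of all genes, and replicate 3 was lowest for 25. Ces3a, a carboxylesterase, had 911, 31733 and 13648 normalised reads. Interferon response genes were highest in Miz1 floxed replicate 1 for 25 of 27. Of the 27, 6 (22.2%) differed more than 4-fold, against 7.89% of all genes. Ifi44, an interferon-induced protein, had 1222, 140 and 300 normalised reads, and Cxcl9, a chemokine induced by interferon gamma, had 494, 60.6 and 158. In the other line 1 of 26 (3.85%) differed more than 4-fold, near the 1.64% of all genes. It was Cxcl9, with 2.50, 1.94 and 21.3 FPKM. Of 18 circadian clock genes 7 differed more than 4-fold in the Miz1 line, against 7.89% of all genes. None of 17 did in the Miz1(POZ) line, where 1.64% of all genes did, so that count does not set the line apart. Dbp, a clock-controlled transcription factor, had 1516, 39.0 and 1198 normalised reads and Per3, a period protein, had 2940, 227 and 2347, so that replicate 2 was far below the others. The time of day of collection is not given in the labels.

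Genes of nonparenchymal cells differed by cell type. None of 16 endothelial and none of 21 stellate and matrix genes differed more than 4-fold in the Miz1 floxed tumours. In lists this small that is near the 7.89% of all genes. More than 2-fold, 12.5% of the endothelial and 38.1% of the stellate and matrix genes differed, against 24.9% of all genes. Of the genes past the minimum there, 6 of 8 B and plasma cell genes and all 5 erythroid genes differed more than 4-fold. None of 16 endothelial and 20 stellate and matrix genes did in the Miz1(POZ) floxed tumours, which is near the 1.64% of all genes there. Cdh5, the cadherin of endothelial junctions, had 2341, 1035 and 1379 normalised reads and 10.9, 10.7 and 16.6 FPKM. Sparc, a matrix glycoprotein, had 5620, 1454 and 2096 normalised reads. Of 23 macrophage and monocyte genes 19 were highest in Miz1 floxed replicate 1 and 20 lowest in replicate 2, and Spp1 (osteopontin) had 6294, 1095 and 1562 there. Of the 23, 19 (82.6%) differed more than 2-fold, against 24.9% of all genes, and 2 (8.70%) more than 4-fold, near the 7.89% of all genes. The summed level of that list was 29667, 10939 and 14911 normalised reads. No T and NK cell gene passed the minimum in the Miz1 table, where Cd3d and Cd3e ranged from 4.04 to 19.5 normalised reads. Immunoglobulin genes stood out in Miz1 floxed replicate 3, with Ighm at 245, 145 and 2630 normalised reads and Igkc at 369, 147 and 1478. The part of cell makeup in the spread of the other genes was not tested.

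Hepatocyte identity genes had a wider median range than all genes. The median range of the 20 genes was 1.05 log2 units in the Miz1 floxed tumours and 0.65 in the Miz1(POZ) floxed tumours, beside 0.54 and 0.35 over all genes, and 2 (10%) and 1 (5%) of the 20 differed more than 4-fold, against 7.89% and 1.64% of all genes. Hnf4a, the nuclear receptor that maintains hepatocytes, named after its values were seen, had 23174, 26320 and 27000 normalised reads, a narrow range. Its 197, 223 and 168 FPKM had a range above the median of all genes in that line. Tat, tyrosine aminotransferase, had 17238, 89156 and 38842 normalised reads.

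**Figure D5:**
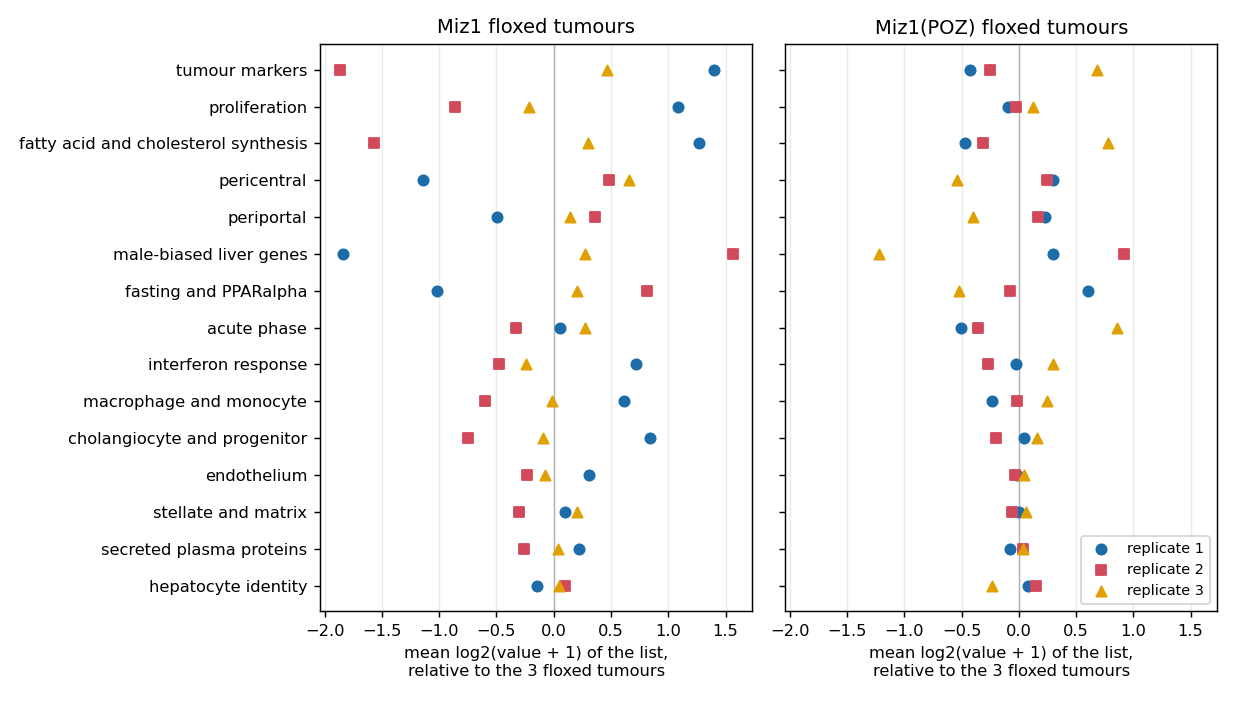
Mean log2(value + 1) of the members of 15 gene lists past the minimum in each floxed tumour, relative to the mean of the 3 floxed tumours of the same table (Miz1 left, Miz1(POZ) right); each point is a tumour. Tumour markers stand at 1.40, -1.87 and 0.47 in Miz1 floxed replicates 1, 2 and 3 and at -0.43, -0.25 and 0.68 in the Miz1(POZ) floxed replicates, while endothelium and hepatocyte identity stay within 0.32 of 0 in every tumour.

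Genes that varied in the Miz1(POZ) floxed tumours also varied in the Miz1 floxed tumours. Among 10576 genes past the minimum in both tables, 690 (6.52%) differed more than 4-fold in the Miz1 line and 135 (1.28%) in the Miz1(POZ) line. In both lines 107 did. That is 15.5% of the first list, against 1.28% of all 10576 genes, and 79.3% of the second, against 6.52%. The lines share no sample. Of 436 genes more than 4-fold higher in Miz1 floxed replicate 1 than in replicate 2, 412 (94.5%) were higher in Miz1(POZ) floxed replicate 3 than in replicate 1, by a median of 1.07 log2 units. Of 234 genes more than 4-fold lower, 227 (97.0%) were lower there, by a median of -1.21. Over all 10576 genes 40.8% were higher and 59.0% lower. The correlation of both differences across these genes was 0.73, a description over genes that are not independent. The tumours compared were chosen after their values were seen.

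The same genes also tended to vary among the knockout tumours. Of the 100 widest genes in the Miz1 floxed tumours 81 passed the minimum in the Miz1 knockout tumours, and 65 were within their widest 10%. Of the 100 widest in the Miz1(POZ) floxed tumours 82 passed it and 70 were within the widest 10% of their knockouts. Without Miz1 floxed replicate 2, 78 of the then 100 widest genes were in the widest 10% of the knockouts. More than 4-fold differences were fewer among the knockouts, with 4.15% of genes in the Miz1 knockout tumours and 1.28% in the Miz1(POZ) knockout tumours.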

How the data were processed

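Tumour RNA was made into TruSeq libraries, per the labels. The submitters' processing notes name mm10 and, with no role or order, DESeq2 1.16.1, edgeR 3.18.1, RSEM 1.1.17, Bowtie2 2.2.6, Trimmomatic 0.36 and bcl2fastq 2.19.0. Values in the Miz1 table, as deposited by the authors, are a signal: read counts over a factor for each library. In floxed replicates 1 and 2, 100% of values were whole multiples of a read (tolerance 0.01). The deposited Miz1(POZ) table holds values taken as FPKM. Its file names no unit, and TPM or RPKM cannot be told apart from it. Dividing the Miz1 values by exon length lifted their log2 correlation with it from 0.80 to 0.91 (10279 genes).

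Entries without a gene and 1426 unannotated loci were left out of ranks, and 23 symbols had become dates. Genes were ranked by the mean of 3 floxed tumours. The range is log2(highest + 1) minus log2(lowest + 1), for genes with a mean of at least 50 normalised reads or 1 FPKM. No test was run. Named are, per table, the 15 highest and the 15 widest genes (also without small RNAs), Zbtb17, Mtdh, the 5 highest and 5 widest of the marker, pericentral and periportal lists and the 2 widest of other lists. Members and lists were chosen with earlier results of these data known. Alternatives covered left-out tumours, scalings, pseudocounts, minimums, thresholds, exon length (GENCODE M21) and small RNAs. The range was checked on simulated data. Python 3.11.15, pandas 2.3.3 and Biopython were used.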

Additional observations from a re-analysis of the deposited data

Results flagged for a closer look

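Loci without a gene name were left out of the ranks above, and they carry strong signal. Of the reads in genes and such loci together, the loci held 25.7%, 18.8% and 22.2% in Miz1 floxed replicates 1, 2 and 3. Shares of the gene total given above thus leave them out unevenly. The entry XLOC_122887 had a mean of 2767184 normalised reads over the 3 Miz1 floxed tumours, with 4746814, 1165764 and 2388974 in replicates 1, 2 and 3. That is close to the level of Alb in each tumour. XLOC_063987, with 580626, 145108 and 377611 normalised reads, was likewise close to Ahsg. The overlap of such loci with named genes, and its part in the ranks and shares above, was not tested. Of the 932 such loci with a mean of at least 50 normalised reads, 138 (14.8%) differed more than 4-fold between the highest and lowest floxed tumour, against 7.89% of named genes.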

How the results depend on the processing

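No paired analysis was possible because each result describes the floxed tumours of 1 table and comes from no test between groups. Leaving out each tumour in turn gave 285 to 1008 genes past 4-fold in the Miz1 line and 33 to 143 in the Miz1(POZ) line, and kept 34 to 91 and 49 to 75 of the 100 widest genes. The span of the zonation index then ran from 0.41 to 1.18 and from 0.0024 to 0.14, and that of the mean over all measured tumour markers (2.85 and 0.86 with all tumours) from 0.76 to 2.85 and from 0.11 to 0.86. Other minimums gave 2430 (none) and 400 (500 normalised reads) genes past 4-fold in the Miz1 line and 110 (10 FPKM) in the Miz1(POZ) line. Thresholds of 2-fold and 8-fold gave 3337 and 482, and 987 and 57. In the Miz1(POZ) line a pseudocount of 0.1 gave 311 and of 10 gave 65. A pseudocount of 10, the higher minimum and ranking by coefficient of variation kept 66, 38 and 35 of the 100 widest Miz1 genes and 61, 66 and 60 of the Miz1(POZ) genes. Per kilobase of exon the 50 highest Miz1 genes held 55.7% of the total. With members past the minimum only, the Miz1(POZ) zonation index spanned 0.23. Scaling to the gene sum shifts the Miz1 tumours by up to 0.22 log2 units against each other. Which genes are widest thus depends on the measure, and low Miz1(POZ) genes on the pseudocount.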
